A study of Mus musculus with 24 samples.

Results

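Wide regions of open chromatin that recurred in mouse liver are described here. Peaks of 6 FAIRE-seq lists on chromosomes 1 to 19 were merged where they shared 1 bp or more, and a region was kept when it held a peak in every list and its merged width, end minus start, was 1500 bp or more. The regions were thus chosen by the peak positions and widths in these same lists, so that their recurrence and their width are no findings. There were 2387 of them among 49364 merged regions in all (4.84%) and among 20381 regions with a peak in every list (11.7%, 95% Wilson interval 11.3 to 12.2, counting error only). The other 17994 regions with a peak in every list were under 1500 bp wide and are called narrow below. Just inside the threshold lay chr10:66999360-67000859 and chr11:85047687-85049186, both 1500 bp wide, and just outside it chr17:46596895-46598393 and chr3:104667014-104668512, both 1499 bp wide. Positions refer to mm9 and count from 1. No gene positions in that build were used here, so regions go without gene names and the tissue was not checked against marker genes.

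FAIRE-seq recovers DNA that is easily freed from crosslinked chromatin, because it is not wrapped around nucleosomes. Open stretches of this kind are found at active promoters and enhancers, where transcription factors displace nucleosomes. Longer open stretches can form where several sites lie side by side or at broad promoters of active genes. In liver, open chromatin is known to follow feeding and lipid supply through factors that bind at such sites.

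The 12 FAIRE libraries came from whole liver of 2 inbred strains, C57BL/6J and A/J, with 2 libraries per strain and diet. Control mice ate the control diet for 16 weeks, HF mice the high fat diet for 16 weeks, and Reversal mice first the high fat diet for 8 weeks and afterwards the control diet for another 8. Reversal mice thus also ate the high fat diet for a shorter time, which cannot be told apart from their return to the control diet. The labels give neither age nor sex, and nothing in them ties the libraries of a group to separate animals. Each strain and diet is represented by 1 peak list, so no spread between replicates exists, no test was run, and every difference below describes lists rather than diets or strains.

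The lists held 31669 to 35811 peaks on chromosomes 1 to 19, and the sources used here do not give depth per library. Signal per peak is taken as the authors deposited it, with its scale not stated, and median signals ran from 0.168 in C57BL/6J Control to 0.332 in A/J Reversal. Peak names carry a serial number within their chromosome, and the highest numbers, summed over chromosomes, came to 244259 in C57BL/6J Control, 163827 in C57BL/6J HF, 176298 in C57BL/6J Reversal, 137787 in A/J Control, 150636 in A/J HF and 116089 in A/J Reversal. The peaks listed were 14.5% to 30.4% of these sums. In bulk liver, fewer cells with an open region and less opening per cell cannot be told apart. The assembly mm9 represents C57BL/6J, and strain differences in signal and in how reads map to it cannot be told apart.

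Wide regions were few but took up much of the open sequence. They held 7.65% to 9.85% of the peaks of a list and 19.2% to 20.9% of the bases its peaks covered, from 3.81 Mb in C57BL/6J HF to 4.52 Mb in A/J Control. Merged widths had a median of 1818 bp, with the central 50% between 1624.5 and 2140 bp. Of all wide regions 1596 (66.9%) were under 2000 bp, 632 (26.5%) were from 2000 to under 3000 bp, 141 were from 3000 to under 5000 bp, and 18 reached 5000 bp or more.

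Peaks of 1500 bp or more were more frequent in the A/J lists. A single peak of 1500 bp or more was present in 1847 wide regions (77.4%) in A/J Control, 1463 (61.3%) in A/J HF and 1340 (56.1%) in A/J Reversal. In C57BL/6J the counts were 949 (39.8%) on Control, 882 (37%) on HF and 1048 (43.9%) on Reversal. The A/J lists thus all lay above the C57BL/6J lists, and so they did over all peaks on chromosomes 1 to 19. There, peaks of 1500 bp or more numbered 1902, 1489 and 1364 in A/J Control, HF and Reversal, against 1005, 917 and 1089 in C57BL/6J. Such a peak alone brings a region to the width threshold, so lists with more of them admit more regions by rule. In 560 regions (23.5%) every list had such a peak, in 318 (13.3%) A/J Control alone had one, and in 187 (7.83%) no list had one, so that the merged width there arose from peaks that lay side by side or overlapped in part. At least 1 A/J list and no C57BL/6J list had one in 906 regions (38%), against 171 (7.16%) for the reverse. The median of the mean rank described below was 17.7% for regions with such a peak in every list and 38.2% for those with it in none, where a lower percentage is stronger.

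Peaks were broader in A/J also when all peaks of a region were summed. The median length covered by peaks was 1510, 1491 and 1540 bp on Control, HF and Reversal in C57BL/6J, against 1730, 1650 and 1620 bp in A/J. On Control, A/J peaks covered more bases than C57BL/6J peaks in 2015 of the 2387 wide regions (84.4%), with a median ratio of 1.11. The same held for 83.7% of narrow regions, with a median ratio of 1.14, so the greater breadth in A/J was not limited to wide regions. On HF the share was 80.4% with a ratio of 1.09, and on Reversal 67.1% with a ratio of 1.04. Within A/J the Control peaks were the broadest: HF peaks covered less than Control peaks in 1830 wide regions, with a median ratio of 0.975, and Reversal peaks in 1878, with 0.972. In C57BL/6J the order differed, since Reversal peaks covered more than Control peaks in 1615 wide regions, with a ratio of 1.02, while HF and Control had a median ratio of 1.

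Most wide regions held 1 peak per list, and C57BL/6J lists divided them more often than A/J lists. In 1263 regions (52.9%) every list had 1 peak. More than 1 peak was found in 959 regions (40.2%) in at least 1 C57BL/6J list and in 722 (30.2%) in at least 1 A/J list. By list, 1 peak was seen in 71.2%, 71.4% and 74.1% of wide regions in C57BL/6J on Control, HF and Reversal and in 88.1%, 81.4% and 77.3% in A/J. A/J Control divided the fewest, with 256 regions of 2 peaks and 29 of 3 or more, and C57BL/6J Control the most, with 603 and 84. The 2 Control lists therefore lay at opposite ends, with both HF lists and both Reversal lists between them. Narrow regions gave the same order of lists, with more than 1 peak in 2.33%, 2.32% and 2.08% of them in C57BL/6J Control, HF and Reversal, against 0.861%, 1.46% and 1.7% in A/J, so the order was not particular to wide regions.

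**Figure D1:**
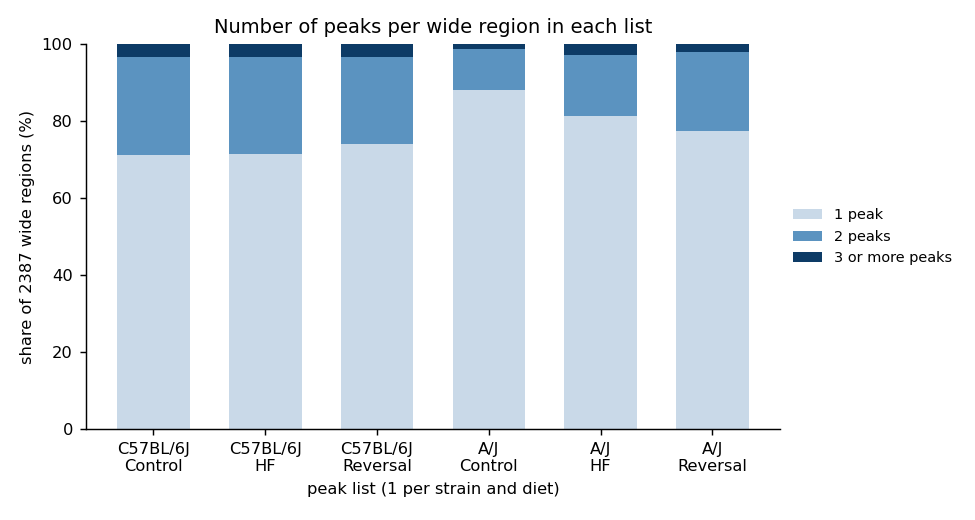
Share of the 2387 wide regions (y axis, %) with 1, 2, or 3 or more peaks in each of the 6 peak lists (x axis). Bars of 1 peak reach 71.2% in C57BL/6J Control and 88.1% in A/J Control, with the other lists between them.

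Divided regions had a short gap and a weaker partner. Where a region held exactly 2 peaks, their summits, the points of highest signal, lay a median of 907 bp apart in C57BL/6J Control, 967 in HF and 930 in Reversal, and 1066, 1005 and 1014 bp apart in A/J. The gap between the peaks had a median of 115, 126 and 122 bp in C57BL/6J, against 76, 92 and 94.5 bp in A/J. The stronger of the 2 peaks had 2.69 to 3.03 times the signal of the weaker one, as medians per list. Strain-wide patterns were uncommon. In 105 regions (4.4%) all 3 C57BL/6J lists had 2 or more peaks and all 3 A/J lists had 1, in 22 (0.922%) the reverse was found, and in 50 (2.09%) all 6 lists had 2 or more. The strongest of the 105 by mean rank, named after its values were seen, was chr2:24830017-24831732: its 3 C57BL/6J lists placed a second summit at 1471 to 1473 bp from the start of the region, which lay inside the single A/J peak, and the main summits of all 6 lists lay between 622 and 648 bp.

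The strongest point of a wide region was mostly in the same place in all lists. Over the 6 lists the summits of the strongest peaks spanned a median of 23 bp, and they lay within 150 bp, about the length of DNA in a nucleosome, in 1890 wide regions (79.2%). Among narrow regions, which leave less room to differ, the share was 93.3%. The span exceeded 500 bp in 316 wide regions (13.2%). The closest pair of lists was A/J Control and A/J Reversal, with 94.8% of summits within 150 bp, and the farthest was C57BL/6J Control and A/J Control with 85.1%. Pairs of 1 strain had 91.7% to 94.8% and pairs across strains 85.1% to 91.7%. They met only at 91.7%, the share of C57BL/6J Control and HF and of C57BL/6J Reversal and A/J HF.

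In 34 wide regions (1.42%) the 3 lists of each strain placed the summit within 150 bp while the strains lay more than 500 bp apart. The most distant pair of sites, named after its values were seen, was in chr4:132566993-132569949, 2957 bp wide. There the summit stood at 404, 388 and 388 bp from the start of the region in C57BL/6J Control, HF and Reversal and at 2722, 2728 and 2725 bp in A/J. All 6 lists gave this region a single peak over nearly its whole length, and its ranks were close, from 14.1% to 19.5%. It is thus a region of like strength and extent in every list whose highest point lay at the opposite end in the other strain. In chr10:127528427-127530658, chosen in the same way, the summits stood at 2011, 2014 and 2028 bp in C57BL/6J, against 187, 188 and 186 bp in A/J.

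**Figure D2:**
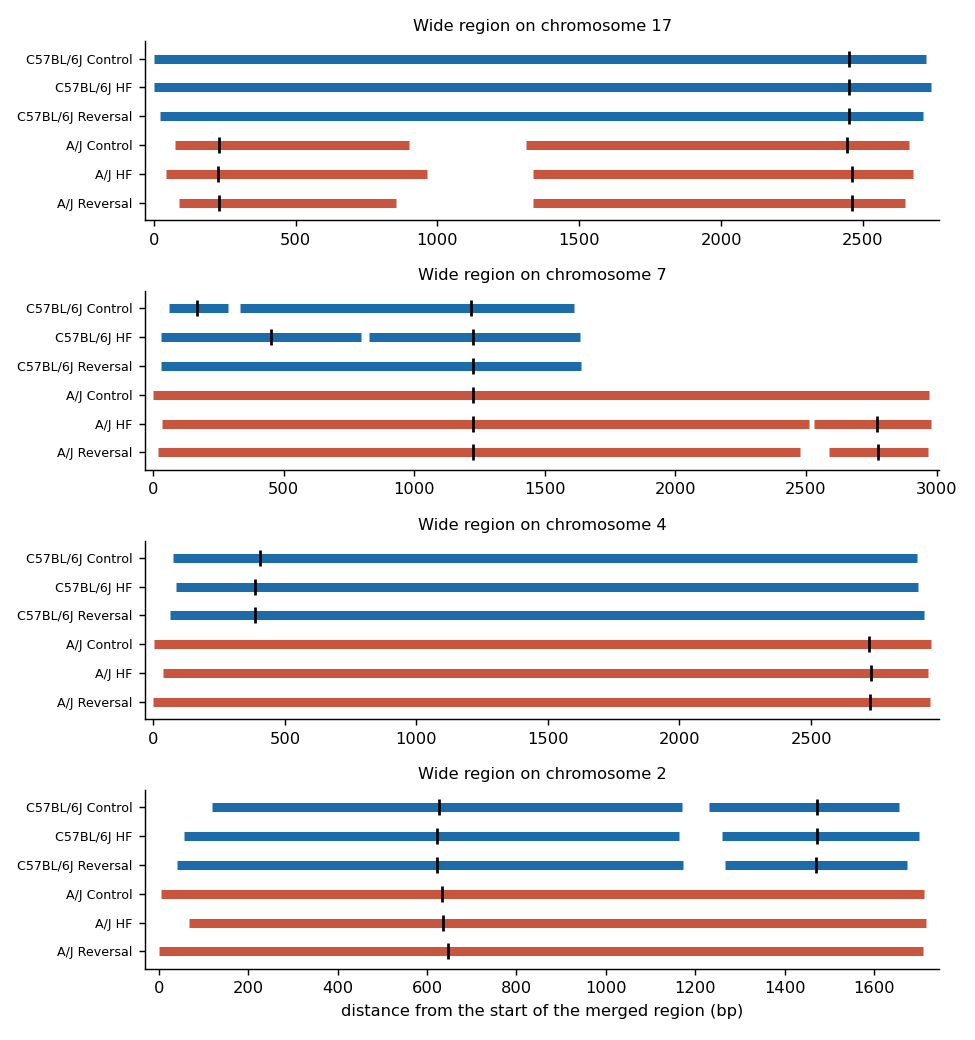
Peaks (bars) and their summits (black ticks) of 4 wide regions by distance from the start of the merged region in bp (x axis), in the 6 lists (y axis, C57BL/6J in blue, A/J in red). The region on chromosome 17 is a single peak in C57BL/6J and a pair in A/J, that on chromosome 7 extends farther in A/J, that on chromosome 4 has its summits at opposite ends, and that on chromosome 2 is divided in C57BL/6J.

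Wide regions ranked above narrow ones in every list. Rank is given for the strongest peak of a region as a percentage of the 20381 regions with a peak in every list, with the strongest near 0% and the weakest at 100%, so that all lists rank the same regions. The median rank of wide regions was 27.2% on Control, 26% on HF and 26.5% on Reversal in C57BL/6J. The A/J lists gave 26.5%, 25.4% and 26.7%. For narrow regions the medians lay between 53.2% and 53.8%. Width and signal were read from the same peaks, and wide regions more often held several peaks from which the strongest was taken. The choice by width is thus not independent of rank, and its part in this difference was not tested. Between 38.5% and 41.2% of wide regions were among the strongest 20% of a list. The overlap between wide and narrow was broad, since 20.9% to 25.3% of wide regions lay in the weaker 50%, and 4.02% to 6.45% in the weakest 20%.

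**Figure D3:**
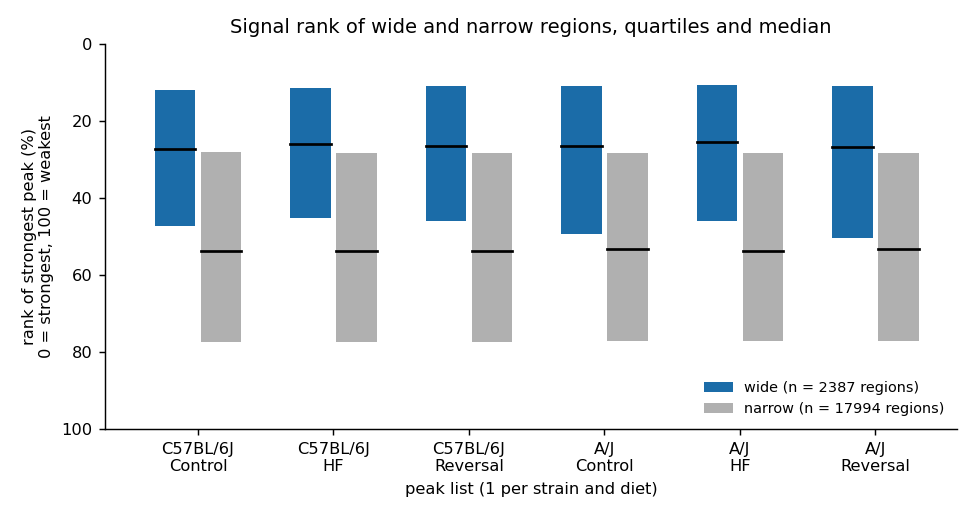
Rank of the strongest peak of a region (y axis, %, strongest at the top) in each of the 6 lists (x axis), for wide and narrow regions with a peak in every list. Bars span the quartiles and black lines are medians, which lie between 25.4% and 27.2% for wide and between 53.2% and 53.8% for narrow regions.

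From 1250 bp on, the median rank changed little with width. The median of the mean rank over 6 lists was 76.3% for regions of 250 to under 500 bp, 41.4% from 750 to under 1000 bp and 26.6% from 1250 to under 1500 bp. Among wide regions it was 27.2% from 1500 to under 1750 bp, 27.4% from 2000 to under 2500 bp and 21.9% from 3000 bp on. Spearman's rho between width and mean rank was -0.562 across the 17994 narrow regions and -0.0254 across the 2387 wide ones. Both are descriptions across regions that share the same lists.

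**Figure D4:**
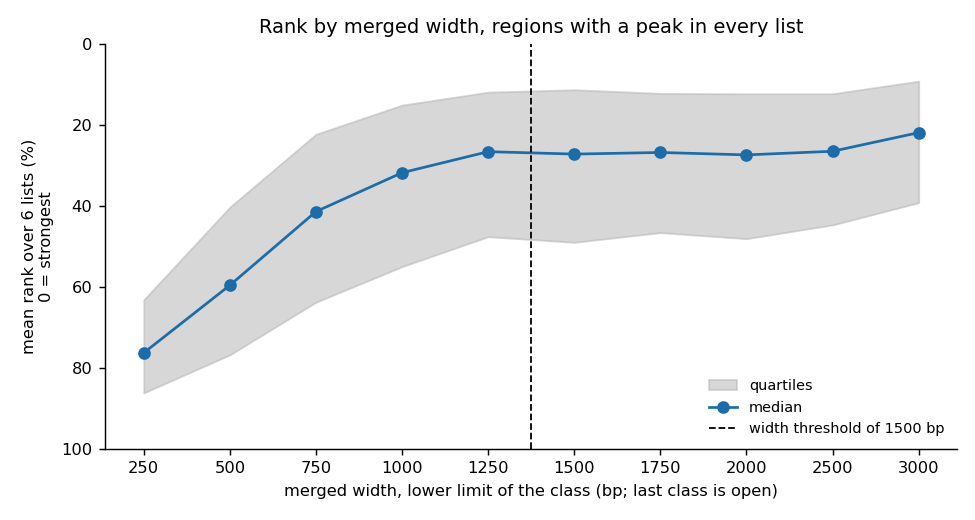
Mean rank over 6 lists (y axis, %, strongest at the top) by class of merged width in bp (x axis, lower limit of each class) for regions with a peak in every list. The line is the median and the band spans the quartiles; the median goes from 76.3% at 250 bp to 26.6% at 1250 bp and stays between 21.9% and 27.4% beyond the threshold of 1500 bp.

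Strong and weak wide regions were built differently. In the strongest 20% by mean rank there were 978 wide regions, 24% of the regions there, and in the weakest 20% there were 109, or 2.67%. Of the 978, 32.1% had a peak of 1500 bp or more in every list and 6.03% in none. For the 109 these shares were 2.75% and 17.4%. The median over lists of the widest peak was 1552 bp in the strong and 1077 bp in the weak class, while merged width stayed near the same, with medians of 1806.5 and 1779 bp. Summits lay within 150 bp in all 6 lists in 88.8% of the strong and 39.4% of the weak wide regions, against 97.4% and 89.4% of narrow regions in these classes. Weak wide regions thus had narrower peaks, and summits that differed more between lists.

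A few regions stood far above the rest in signal. Only 5 or 6 wide regions per list had a signal above 10, while medians of wide regions were 0.515 to 1.19. The strongest by mean rank was chr4:79648071-79651294, with signals of 101.3, 114.3 and 173.6 in C57BL/6J Control, HF and Reversal and 182.3, 151.1 and 257.2 in A/J. Next were chr1:24618113-24623217, at 93.94 to 261.5, and chr2:22442656-22446357, at 88.78 to 254.3. Since the scale of the signal is not stated, these values show how far a region stood above others of its own list and set no order between lists. The fourth, chr9:3000001-3038471, was also the widest region of all at 38471 bp, a single peak in every list, and its signals were 76.14, 67.52 and 67.84 in C57BL/6J, against 71.2, 74.12 and 66.09 in A/J. The fifth was chr11:3022024-3026408, at 10.59 to 18.36. Among narrow regions 35 to 39 per list passed a signal of 10, so extreme signal was not a mark of width. No filter for repeated sequence was applied here, and the part of read mapping in these high signals was not tested.

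The most divided regions lay in 1 stretch of chromosome 11. The region chr11:3026919-3059228, 32310 bp wide, was 1 peak in C57BL/6J Control and in HF, 6 in C57BL/6J Reversal, 16 in A/J Control, 12 in A/J HF and 12 in A/J Reversal. Its neighbour chr11:3059303-3074987 had 1, 1 and 5 peaks in C57BL/6J, against 10 in each A/J list, and chr11:3080541-3100078 had 2, 1 and 9 against 7, 8 and 7. C57BL/6J Control and HF thus left these regions nearly undivided while the other 4 lists divided them. The part of repeated sequence and read mapping in the division and ranks of this stretch was not tested. Ranks differed too, and chr11:3059303-3074987 stood at 8.37%, 31.4% and 42.2% in C57BL/6J Control, HF and Reversal and at 49.2%, 49.9% and 54.3% in A/J. The fifth widest region, chr8:19917263-19930784, ranked at 1.64%, 10.8% and 16.1% in C57BL/6J, against 20.4%, 20.4% and 20.3% in A/J.

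Wide regions lay in groups in some places. With gaps of up to 10 kb, 404 of the 2387 (16.9%) had another wide region as neighbour, in 115 pairs and 46 larger groups, of which 17 held 4 or more. The largest groups had 9 members each, at chr6:47600152-47636636 and chr10:80870753-80897879. The first had a median mean rank of 8.21% and the second of 37.9%. Some groups were nearly continuous, so that short gaps set the number of their members. Members covered 35.4 of 36.5 kb in the first and 77.4 of 78.1 kb at chr11:3022024-3100078. Grouping was not counted for narrow regions. A group of 8 at chr6:47687126-47727268 was among the strongest, with a median of 0.3%, and had 9, 12 and 12 peaks in C57BL/6J Control, HF and Reversal against 22, 22 and 23 in A/J. At the other end, 7 members at chr8:126124357-126143724 had a median of 93.7%, with median ranks of 75%, 98.7% and 93.2% in C57BL/6J, against 98.6%, 97.7% and 99.2% in A/J, so that C57BL/6J Control stood apart there. The region with the weakest mean rank of all, chr8:126138537-126140091, belonged to it, with 88.1%, 99.8%, 93.2%, 99.5%, 98.2% and 99.7% in the same order of lists.

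Chromosomes differed in their share of wide regions. It was highest on chromosome 10, at 154 of 1003 regions with a peak in every list (15.4%, 95% Wilson interval 13.3 to 17.7), and on chromosome 11, at 280 of 1854 (15.1%, 13.5 to 16.8). It was lowest on chromosome 16, at 59 of 652 (9.05%, 7.08 to 11.5), and chromosome 2, at 148 of 1629 (9.09%, 7.78 to 10.6). The intervals cover counting error only. The nearest other region with a peak in every list was a median of 8.49 kb away from wide regions and 12.1 kb from narrow ones.

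Ranks of wide regions were close between lists. The range from the highest to the lowest rank of a region over the 6 lists had a median of 11.7 percentage points, and it was under 10 points in 1025 of the 2387 regions (42.9%), against 24.7% of narrow regions. Within classes of mean rank the gap was smaller: in the strongest 20% the median range was 5.94 points for wide and 6.44 for narrow regions, and from 40% to 60% it was 19.2 and 21. From 80% to 100% it was larger for wide regions, at 19.9 against 18.3. Over 50 points were spanned by 31 wide regions (1.3%), against 3.36% of narrow ones. By the median distance in rank over wide regions, A/J Control and A/J Reversal were nearest, at 2.16 points, followed by C57BL/6J HF and C57BL/6J Reversal at 2.4. The farthest were C57BL/6J Control and A/J Control, at 7.79. A/J HF stood nearer to C57BL/6J Reversal, at 2.89, than to A/J Control or A/J Reversal, at 3.62 and 3.64.

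Shifts in rank of 10 points or more were counted in each direction and are set beside the same count over all 20381 regions. For other measures and thresholds only wide regions were counted. There, a lean of wide regions cannot be told apart from a lean of all regions. Rank in the whole list is a share of all peaks of a list, so 10 points are not the same step by that measure. In C57BL/6J, 149 wide regions (6.24%) ranked stronger on HF than on Control and 114 (4.78%) weaker, against 11.2% and 11.7% of all regions. The median shift was 0.60 points toward the strong end. The lead of stronger over weaker shifts depended on the measure, since with signal summed over the peaks of a region and weighted by their width there were 163 stronger and 241 weaker. Reversal against Control gave 210 stronger (8.8%) and 162 weaker (6.79%), against 14.6% and 14.8% of all regions. Reversal against HF gave 67 (2.81%) and 71 (2.97%), against 6.33% and 5.92%. There the split again moved with the measure, to 68 and 38 by rank in the whole list and to 186 and 47 by summed signal.

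In A/J, 207 wide regions (8.67%) ranked stronger on HF than on Control and 113 (4.73%) weaker, against 9.09% and 11.5% of all regions. Wide regions thus leaned toward HF while all regions leaned the other way, but this order was lost by rank in the whole list, with 58 stronger and 65 weaker, and by summed signal, with 135 and 172. Reversal and Control were nearly alike, with 18 (0.754%) stronger and 32 (1.34%) weaker on Reversal, against 2.35% and 2.26% of all regions. By rank in the whole list these were 7 and 66 and by summed signal 31 and 216, so that weaker shifts led in each case. The counts over all regions are lacking for these 2 measures. Reversal against HF gave 111 stronger (4.65%) and 243 weaker (10.2%), against 11.5% and 9.24% of all regions. The 3 comparisons within a strain share lists, and their counts are not independent of each other.

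**Figure D5:**
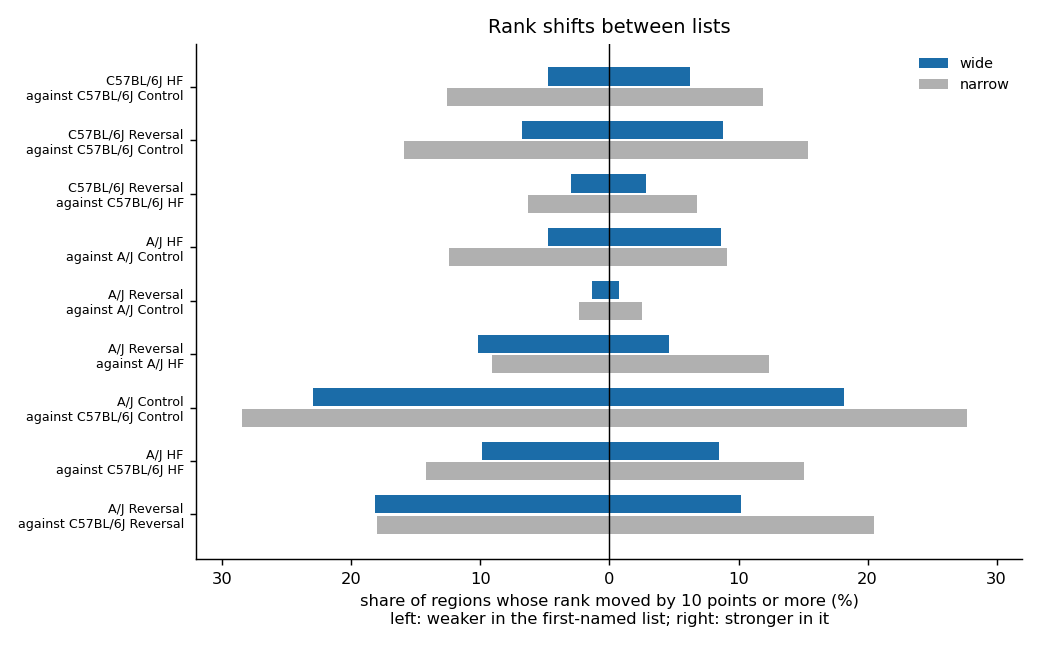
Share of regions (x axis, %) whose rank moved by 10 points or more between 2 lists (y axis), toward the strong end in the first-named list on the right and toward the weak end on the left, for 2387 wide and 17994 narrow regions. Bars of wide regions are shorter than those of narrow ones except for weaker ranks in A/J Reversal against A/J HF (10.2% and 9.11%) and against C57BL/6J Reversal (18.2% and 18%).

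Few of the strongest regions shifted, wide or narrow. Among the 978 wide regions in the strongest 20%, 12 ranked stronger and 2 weaker on HF than on Control in C57BL/6J. The A/J counts were 12 and 5. These are 1.23% and 0.204% in C57BL/6J, against 1.42% and 0.129% of narrow regions in this class, and 1.23% and 0.511% in A/J, against 1.45% and 0.194%. Wide regions were thus near the share of narrow ones there. A rank near 0% can move by 10 points in 1 direction only. From 40% to 60% the shares in C57BL/6J were 13.9% stronger and 4.65% weaker for wide regions and 19.2% and 8.32% for narrow ones. In A/J they were 19.3% and 12.7% for wide and 15.8% and 16.1% for narrow regions. From 60% to 80% the A/J shares were 19.3% and 6.73% for wide and 13.7% and 21.3% for narrow regions. The lean of A/J wide regions toward HF was thus present at these ranks, where narrow regions did not show it, by the rank of the strongest peak. From 80% to 100% A/J wide regions were balanced, at 7.34% stronger and 8.26% weaker, while narrow ones had 5.44% and 13.9%. In C57BL/6J the lean was reversed in the weak classes. From 60% to 80% its shares were 11.7% stronger and 15.7% weaker for wide and 20.7% and 21.4% for narrow regions. From 80% to 100% they were 1.83% and 43.1% for wide and 7.69% and 26.4% for narrow regions.

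Regions with the largest single shifts on HF had middle mean ranks, which is no finding, since a large shift keeps the mean away from both ends. In C57BL/6J, chr11:115037691-115039640 ranked at 88.3% on Control, 43.8% on HF and 57.8% on Reversal, and in A/J at 25.8%, 37.4% and 25.1%. HF was the strongest C57BL/6J list there and the weakest A/J list. In the other direction chr10:57686379-57689139 ranked at 25.8%, 64% and 40.8% in C57BL/6J, against 68.3%, 51.5% and 73.7% in A/J, where HF was the strongest. Its neighbour chr10:57693624-57695762 stood at 33.6%, 68.3% and 50.2% and at 71.4%, 49.7% and 78.3%, the same order in each strain. In A/J the largest move toward the strong end on HF was in chr13:3371868-3373779, at 71.3%, 38.5% and 74% on Control, HF and Reversal, against 7.89%, 7.88% and 16.6% in C57BL/6J. The largest toward the weak end was in chr12:110088309-110090265, at 19.3%, 43.8% and 29% in A/J and at 80%, 59.7% and 48.7% in C57BL/6J. In each of these regions the A/J HF value lay between A/J Control and C57BL/6J Control.

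Where the rank of a wide region differed between HF and Control in both strains, the directions were mostly opposite. The comparisons of the strains share no list. In 49 wide regions (2.05%) HF ranked stronger in C57BL/6J and weaker in A/J by 10 points or more each, and in 30 (1.26%) the reverse, against 4.21% and 2.91% of all regions. The same direction was found in 3 (0.126%) toward the strong end and 2 (0.0838%) toward the weak end, against 0.334% and 0.476%. Over all regions the counts were 1452 in opposite directions and 165 in the same one. The sum of serial numbers, given above, also lay between those of the Control lists for both HF lists, as did the share of wide regions with 1 peak, and their part in this pattern was not tested. Of the 5 regions with the same direction, chr17:30743157-30744809, named after its values were seen, ranked at 94.9%, 76.5% and 95.3% in C57BL/6J Control, HF and Reversal and at 63.7%, 50.4% and 59.7% in A/J. In chr2:25977137-25978994, named in the same way, the ranks were 53.6%, 41.8% and 45.5% and 55.4%, 43.8% and 50.7%, so that both strains had nearly the same values in this order of diets.

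Regions that shifted between Control and HF had Reversal ranks on different sides in the strains. These sets were picked on 2 of the 3 lists and are described only. The 149 wide regions stronger on HF in C57BL/6J had median ranks of 63% on Control, 46% on HF and 47.3% on Reversal, and the 114 weaker ones 61.7%, 77% and 72.6%. In A/J the 207 stronger ones had 59%, 45.6% and 58.6%, and the 113 weaker ones 32.2%, 47.1% and 34%. In C57BL/6J the Reversal median was near that of HF, and in A/J near that of Control. Whole lists stood in the same order, so this was not particular to these sets. Over narrow regions the median distance in rank from C57BL/6J Reversal was 3.63 points to HF and 6.09 to Control. From A/J Reversal it was 4.78 points to HF and 2.9 to Control. In the other strain the sets differed. The 149 regions had median ranks of 32.2%, 39.9% and 33.5% on Control, HF and Reversal in A/J, and the 114 had 79.5%, 73.8% and 80.7%. In C57BL/6J the 113 regions had 66.2%, 53.8% and 50.2%, while the 207, the largest set, had 39.4%, 40.9% and 43.1%, with HF close to Control.

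Between strains the shifts were larger. On Control 435 wide regions (18.2%) ranked stronger in A/J than in C57BL/6J, against 550 (23%) weaker, against 26.6% and 27.9% of all regions. On HF the counts were 203 (8.5%) and 236 (9.89%), against 14.3% and 13.7%, and on Reversal 244 (10.2%) and 435 (18.2%), against 19.3% and 18%. On Control and HF the lead of C57BL/6J depended on the measure and the threshold. At a threshold of 20 points the counts on Control were 198 and 196, and at 5 points those on HF were 491 and 489. By rank in the whole list the counts were 342 and 262 on Control, 154 and 114 on HF and 185 and 208 on Reversal, and by summed signal 468 and 365, 374 and 135, and 310 and 367. On Reversal the lead of weaker shifts in A/J was thus present by all 3 measures, though all regions were counted for the main measure only.

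The strain lean of wide regions changed with their strength. In the strongest 20%, 10.9% of wide regions were stronger and 5.21% weaker in A/J on Control, a lean that narrow regions shared, at 9.78% and 7.04%. On Reversal both shares of wide regions in this class were 2.45%. From 60% to 80% wide regions had 19.3% and 52% on Control. Narrow regions from 60% to 80% were balanced, at 38.5% and 37.8%. The same was seen on HF, with 15.7% and 35.9% for wide and 25.7% and 23.6% for narrow regions from 60% to 80%, and on Reversal, with 16.1% and 46.2% against 32.5% and 26.2%. In this class wide regions thus ranked lower in A/J than in C57BL/6J on all 3 diets and narrow regions did not, by the rank of the strongest peak. From 80% to 100% on Control both leaned that way, with 15.6% and 53.2% for wide and 22.6% and 33.3% for narrow regions. A/J peaks were also broader in these lists, as given above, and the part of that breadth was not tested.

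Some wide regions differed between strains on every diet. All 3 A/J ranks were stronger than all 3 C57BL/6J ranks with a gap of 10 points or more in 64 wide regions (2.68%, against 5.2% of all regions), and the reverse held in 110 (4.61%, against 6.08%). In chr7:38984765-38986370 the ranks were 66.8%, 77.1% and 77.9% in C57BL/6J Control, HF and Reversal and 7.11%, 10.2% and 6.9% in A/J, the widest gap toward A/J. At a lower coordinate of the same chromosome, chr7:38967604-38970583 ranked at 37.8%, 36.8% and 37.7% and at 0.692%, 0.451% and 0.653%. There the A/J peaks covered 2970, 2927 and 2837 bp and the C57BL/6J peaks 1503, 1573 and 1606 bp, with the strongest summit at 1218 to 1223 bp in all lists. Both regions were thus stronger and longer in A/J on every diet. The regions with the widest gaps were named after their values were seen.

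Toward C57BL/6J the widest gap was in chr3:8244556-8246668, at 7.82%, 3.34% and 24.4% in C57BL/6J, against 93.8%, 70.1% and 90.9% in A/J. The region chr17:13743392-13746130 ranked at 0.319%, 0.319% and 0.442% in C57BL/6J, against 59.8%, 40.3% and 60.2% in A/J. A single C57BL/6J peak there faced a pair of A/J peaks with a strongest summit in nearly the same place, at 2451 bp in C57BL/6J, against 2444 to 2463 bp in A/J. In chr4:118219619-118221474 the ranks were 0.216%, 0.348% and 0.236% and 52.7%, 37.9% and 53.4%, again with A/J HF the strongest of the A/J lists. In all 3 of these regions A/J HF lay nearer to C57BL/6J than A/J Control and A/J Reversal did, and the groups of lists did not overlap.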

How the data were processed

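FAIRE-seq of 12 liver libraries was used, as 6 peak lists deposited by the authors, assigned to strain and diet by list name. Of Bowtie2, TopHat, DESeq2 and the build mm9, the submitters' processing notes give the names alone, without version or role. The sources used here do not give the peak caller, nor whether a list pools 2 libraries. The deposited signal per peak has no stated scale. It was used to rank and compare peaks within a list, and values printed for several lists set no order between them. The deposited expression tables were not used here. For Reversal, 1 label gives 16 weeks of control diet and the protocol 8, and the protocol was followed.

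Peaks on chromosomes 1 to 19 were merged at 1 bp or more of overlap with Python 3.11.15 and pandas 2.3.3. A region's rank in a list is that of its strongest peak among the 20381 regions with a peak in every list. A shift is a difference of ranks in percentage points, counted from 10 points on. The code was checked on lists with planted regions and shifts. No test was run, since each strain and diet has 1 list. Alternatives changed the width minimum, overlap, weak peaks, rank measure and shift threshold.

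Regions were named by rule: the 5 widest, the 5 strongest and 5 weakest by mean rank, the 3 with most peaks, those next to the width threshold, and 2 per comparison and direction with the largest shift. Some of these are printed, and others named in the text were chosen after their values were seen. The set of regions and the measures were chosen with earlier results of these data known.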

Additional observations from a re-analysis of the deposited data

Results flagged for a closer look

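In 8 wide regions named for a large shift, rank moved by 10 points or more on HF against Control in opposite directions in the 2 strains. With 1 list per strain and diet this difference was not tested. Points are positive toward the strong end on HF. In chr11:115037691-115039640 the shift was 44.6 points in C57BL/6J against -11.6 in A/J, in chr11:98158842-98160504 it was 35.8 and -21.5, in chr10:79556196-79558667 it was 32 and -13.5, and in chr10:74513635-74516225 it was 34.2 and -13. In chr12:110088309-110090265 it was 20.3 in C57BL/6J against -24.5 in A/J. The other direction was found in chr10:57686379-57689139, with -38.2 in C57BL/6J against 16.9 in A/J, in chr10:57693624-57695762, with -34.8 and 21.7, and in chr12:10968327-10969862, with -18.9 and 30.3.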

How the results depend on the processing

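No paired analysis was possible because each strain and diet has 1 list and no value per library. Leaving out a replicate was not possible for the same reason. The number of wide regions was 7125 at a minimum width of 1000 bp and 791 at 2000 bp. At 1000 bp median ranks were 28.6%, 27.8% and 27.9% in C57BL/6J Control, HF and Reversal and 28.6%, 27.8% and 28.8% in A/J. They were 16.6%, 16.7%, 17.1%, 15.1%, 15.7% and 15.7% in the same order by rank in the whole list, and 13.8%, 14.5%, 13.4%, 11.4%, 12.1% and 12.6% by summed signal weighted by width. Merging at 100 bp of overlap, merging across gaps of 100 bp, leaving out the weakest 20% of each list, and, for the number of regions, cutting lists to the shortest left every count within 1.5 times its value. Counts of stronger and weaker shifts by rank in the whole list were 95 and 91 for C57BL/6J HF against C57BL/6J Control, 125 and 108 for C57BL/6J Reversal against C57BL/6J Control, 68 and 38 for C57BL/6J Reversal against C57BL/6J HF, 58 and 65 for A/J HF against A/J Control, 7 and 66 for A/J Reversal against A/J Control, 43 and 151 for A/J Reversal against A/J HF, 342 and 262 for A/J Control against C57BL/6J Control, 154 and 114 for A/J HF against C57BL/6J HF, 185 and 208 for A/J Reversal against C57BL/6J Reversal. By summed signal they were 163 and 241 for C57BL/6J HF against C57BL/6J Control, 205 and 136 for C57BL/6J Reversal against C57BL/6J Control, 186 and 47 for C57BL/6J Reversal against C57BL/6J HF, 135 and 172 for A/J HF against A/J Control, 31 and 216 for A/J Reversal against A/J Control, 107 and 250 for A/J Reversal against A/J HF, 468 and 365 for A/J Control against C57BL/6J Control, 374 and 135 for A/J HF against C57BL/6J HF, 310 and 367 for A/J Reversal against C57BL/6J Reversal. At a threshold of 5 points they were 488 and 285 for C57BL/6J HF against C57BL/6J Control, 494 and 385 for C57BL/6J Reversal against C57BL/6J Control, 281 and 292 for C57BL/6J Reversal against C57BL/6J HF, 585 and 291 for A/J HF against A/J Control, 156 and 264 for A/J Reversal against A/J Control, 287 and 654 for A/J Reversal against A/J HF, 678 and 819 for A/J Control against C57BL/6J Control, 491 and 489 for A/J HF against C57BL/6J HF, 460 and 776 for A/J Reversal against C57BL/6J Reversal. At 20 points they were 31 and 20 for C57BL/6J HF against C57BL/6J Control, 52 and 19 for C57BL/6J Reversal against C57BL/6J Control, 6 and 8 for C57BL/6J Reversal against C57BL/6J HF, 11 and 9 for A/J HF against A/J Control, 2 and 0 for A/J Reversal against A/J Control, 6 and 20 for A/J Reversal against A/J HF, 198 and 196 for A/J Control against C57BL/6J Control, 43 and 56 for A/J HF against C57BL/6J HF, 73 and 93 for A/J Reversal against C57BL/6J Reversal. HF shifts in opposite directions in the strains numbered 47 by rank in the whole list, 106 by summed signal, 301 at 5 points and 4 at 20 points, and in the same direction 7, 26, 93 and 0, alternatives chosen after seeing the data. Opposite shifts were thus the more frequent in each of these. Thresholds count fewer or more regions by construction, and weighting by width favours wide regions by construction. Rank in the whole list is taken among all peaks of a list, so its percentages and points are on another scale. Other causes of these differences were not tested. Depth per library is not known, so counting error of signals cannot be given.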

Other observations

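Of all 2495 merged regions of 1500 bp or more, 2387 (95.7%) held a peak in every list, against 38.4% of the 46869 narrower ones. Merged width joins the peaks of all lists, so peaks in more lists can only widen a region, and this contrast is no finding. The 108 wide regions outside this set lacked a peak in A/J Reversal in 55 cases and in C57BL/6J Reversal in 32, the most and the fewest. All 3 A/J lists lacked one in 27 of them and all 3 C57BL/6J lists in 15.

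Reversal lists stood apart in some wide regions named for a large shift, in both strains or mainly in either strain. How many wide regions did so was not counted. In chr9:93067677-93071300 both Reversal lists were the strongest of their strain, at 44.4%, 37.7% and 16.8% in C57BL/6J Control, HF and Reversal and at 49.4%, 27.2% and 8.92% in A/J, the largest A/J shift of Reversal against Control toward the strong end. The second largest, chr5:85047236-85048875, had the same order, at 26.2%, 23.1% and 5.6% and at 34.4%, 15.7% and 2.35%. In chr8:19984198-19986212 C57BL/6J Reversal ranked at 96.2% while the other 5 lists lay between 53.3% and 64%. In chr9:107520507-107522431 A/J Control, HF and Reversal ranked at 61.5%, 69.2% and 43.4%, against 92.7%, 87% and 99.9% in C57BL/6J.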
